A study of Homo sapiens with 54 samples.

Results

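Transcripts of 6 genes of the ERBB receptor system were followed through 6 established human cancer cell lines and the drugs trametinib, palbociclib and afatinib. They are the receptors EGFR, ERBB2, ERBB3 and ERBB4, and ERRFI1 and LRIG1, a pair of proteins that bind the receptors and restrain them. The genes were taken by symbol, and all 6 were found in both deposited count tables, among 33119 genes in each.

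ERBB receptors are tyrosine kinases of the cell surface that work in pairs. EGFR binds ligands such as amphiregulin and epiregulin, ERBB2 (HER2) has no known ligand and is a favoured partner of the others, ERBB3 has a weak kinase but many docking sites for PI3 kinase, and ERBB4 binds neuregulins. ERRFI1 (also called MIG6) binds the kinase domain of an active receptor and blocks it, and is known as a gene induced by the ERK pathway that the receptors drive. LRIG1 is a membrane protein that promotes the degradation of the receptors.

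The cells fall into 18 groups of 3 libraries, 54 in all. In set 1 the colorectal lines SW48 and SW620 were given trametinib, which blocks MEK1 and MEK2, the kinases that activate ERK, or were controls. In set 2 the same lines were given trametinib, palbociclib, which blocks the cyclin D kinases CDK4 and CDK6, or were controls. In the stomach lines NCI-N87 and MKN-45 and the breast lines BT-20 and BT-474, also of set 2, afatinib, which blocks ERBB kinases irreversibly, was set against controls. All lines were grown in DMEM with serum, so each control also had serum growth factors. The labels give no dose, no exposure time and no vehicle for the controls. They also do not say whether the 3 libraries of a group were separate cultures; a p-value then measures only how these samples scatter, which may be technical. NCI-N87 and BT-474 are lines known to carry extra copies of ERBB2, and BT-20 is known to carry extra copies of EGFR; copy number was not analysed here.

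Reads came from the 3′ ends of transcripts, with 4063382 to 10622670 counts per library in set 1 and 3401565 to 12806042 in set 2. Levels are given as CPM (counts scaled to the size of the library) after TMM scaling within a set, and ± is the SD of 3 libraries. The sets were tested apart. Several libraries stood apart from their group: control 3 of SW620 in set 1, trametinib 3 of SW620 in set 2, and control 1 and afatinib 3 of NCI-N87. The labelled tissues were borne out only in part. CDX1, an intestinal transcription factor, had no count in the SW48 and SW620 controls, and CDX2 averaged 75.7 and 2.76 CPM in the SW48 and SW620 controls of set 1 and 96.8 and 34.2 CPM in those of set 2. CLDN18, a stomach claudin, averaged 0.19 CPM in NCI-N87 controls and 10.97 CPM in MKN-45 controls. Sums of markers, here and below, are of CPM without TMM scaling. The 6 stomach markers summed to 4.639 to 7.958 CPM in NCI-N87 controls and 133.6 to 148.1 CPM in MKN-45 controls. In BT-474 controls they summed to 299.9 to 325.8 CPM. Only 2 of the 6 stomach markers reached a mean of 1 CPM in BT-474 controls, where GKN1 was at 0. In NCI-N87 controls 2 reached it, and in MKN-45 controls 5. The 6 colorectal markers summed to 257.9 to 298.4 CPM in NCI-N87 controls. Their sum was 104.1 to 120 CPM in SW48 and 91.29 to 96.28 CPM in SW620 controls of set 2. A mean of 1 CPM was reached by 4 of the colorectal markers in NCI-N87 and by 3 in SW48 and in SW620. GATA3, a luminal breast factor, averaged 102 CPM in BT-20 controls and 290.0 CPM in BT-474 controls, but also 77.4 CPM in the SW620 controls of set 1, where PGR, the progesterone receptor, averaged 101 ± 96.7 CPM. PGR averaged 0.07 CPM in the SW620 controls of set 2. The 6 luminal breast markers summed to 244.1 to 263.3 CPM in the SW620 trametinib libraries of set 1 and to 287.4 to 385.2 CPM in the controls.

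The receptors that afatinib can attack are told apart by a few bases. Afatinib bonds to a cysteine at the edge of the ATP pocket, and the coding sequence around that codon is shown because it sets ERBB3 apart. The sequences are from GENCODE 29 on GRCh38, all lie in exon 20 of their gene, each has 45 bases, and the capitals mark the aligned codon, number 797 in EGFR, 805 in ERBB2, 794 in ERBB3 and 803 in ERBB4.
EGFR, chr7:55181377-55181421, + strand: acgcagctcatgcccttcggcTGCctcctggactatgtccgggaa
ERBB2, chr17:39724810-39724854, + strand: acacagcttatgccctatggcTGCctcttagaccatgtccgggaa
ERBB3, chr12:56097129-56097173, + strand: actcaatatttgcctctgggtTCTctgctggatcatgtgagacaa
ERBB4, chr2:211561960-211562004, − strand: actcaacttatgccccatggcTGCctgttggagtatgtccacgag
TGC codes for cysteine in EGFR, ERBB2 and ERBB4, and TCT codes for serine in ERBB3. These are reference sequences; the cells' own sequence was not analysed here.

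Whole genes lie, on GRCh38.p14, at chr7:55019017-55211628 for EGFR, chr17:39688094-39728658 for ERBB2, chr12:56080108-56103505 for ERBB3, chr2:211375717-212538802 for ERBB4, chr1:8011727-8026309 for ERRFI1 and chr3:66378797-66501121 for LRIG1. Some share their ends with other genes, which matters for reads from 3′ ends. ERBB2 shares its last 149 bases with MIEN1, LRIG1 shares 131 bases with SLC25A26, and EGFR-AS1 lies inside EGFR over 9200 bases. Whether reads were counted by strand is not stated, so reads in these stretches cannot be assigned to one gene with certainty. EGFR-AS1 averaged at most 1.51 CPM, in BT-20 controls, and MIEN1 and SLC25A26 are given below where they bear on a result.

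In control cells of set 2, BT-20 led for EGFR, NCI-N87 for ERBB2 and ERBB3, and BT-474 for ERBB4. EGFR was highest in BT-20, where the libraries held 453, 425 and 429 CPM, followed by SW48 with 154, 164 and 140 CPM. BT-20 stood 2.85-fold over SW48, and no library of one line reached the other. NCI-N87 (32.3 ± 9.61 CPM) and MKN-45 (31.6 ± 5.05 CPM) overlapped, BT-474 held 6.40 ± 2.70 CPM, and SW620 had 0, 1 and 0 counts, under the 3 counts taken as the limit of detection. BT-20 also led for SEC61G, VOPP1 and LANCL2, the genes beside EGFR on 7p11.2. SEC61G, a subunit of the protein channel of the endoplasmic reticulum, averaged 1040 ± 64.1 CPM in BT-20 and 182 to 412 CPM in the other lines.

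ERBB2 was highest in NCI-N87, with 1599.77, 2204 and 1951 CPM, and in BT-474, with 1150.37, 1170.45 and 1133 CPM. BT-474 stood 10.3-fold over BT-20, the next line (112 ± 5.41 CPM). Below it came SW48 (101 ± 6.10 CPM), MKN-45 (89.5 ± 3.98 CPM) and SW620 (45.9 ± 7.64 CPM). Their ranges did not overlap, but the gaps were small: the lowest BT-20 library held 105.4 CPM and the highest SW48 library 105.1 CPM, and the lowest SW48 library held 93.75 CPM and the highest MKN-45 library 93.61 CPM. Several genes around ERBB2 on 17q12, but not all, were highest in the same lines. GRB7, an adaptor that binds ERBB2, averaged 3537 ± 1414 CPM in NCI-N87, 685 ± 32.6 CPM in BT-474 and 32.5 to 142 CPM elsewhere. STARD3, a cholesterol carrier, averaged 613 ± 83.2 CPM in NCI-N87, 430.1 ± 29.9 CPM in BT-474 and 62.7 to 66.7 CPM elsewhere. MIEN1, which overlaps ERBB2, averaged 1153 ± 176 and 315 ± 7.07 CPM in NCI-N87 and BT-474, against 54.8 to 101 CPM elsewhere. Other neighbours departed from this: PNMT averaged 0.908 ± 0.795 CPM in NCI-N87 and 2.17 ± 0.669 CPM in SW620, IKZF3 11.9 ± 11.8 CPM in NCI-N87 and 10.02 ± 1.68 CPM in MKN-45, and PPP1R1B 6.82 ± 2.12 CPM in BT-474 and 183 ± 17.6 CPM in MKN-45.

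ERBB3 spanned a narrower range than EGFR or ERBB2. NCI-N87 was first (187, 271 and 264 CPM), then BT-474 (167, 158 and 164 CPM), SW620 (148, 145 and 156 CPM), MKN-45 (97.0 ± 6.75 CPM), BT-20 (78.0 ± 4.33 CPM) and SW48 (60.4 ± 4.36 CPM). No neighbours in this order overlapped. ERBB4 was highest in BT-474, with 55, 41 and 55 counts per library (7.9998, 5.68 and 7.54 CPM). The other 5 lines averaged at most 0.557 CPM, and their ranges overlapped.

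Of the inhibitors, ERRFI1 had a leading line that no receptor had, and LRIG1 shared its leading line with ERBB4. ERRFI1 was highest in SW48, with 112, 149 and 138 CPM, 2.63-fold over MKN-45 (50.5 ± 13.7 CPM). BT-20 (32.7 ± 0.313 CPM), SW620 (26.0 ± 2.74 CPM) and NCI-N87 (25.4 ± 4.81 CPM) followed, with SW620 and NCI-N87 overlapping, and BT-474 was lowest (13.001 ± 1.88 CPM). LRIG1 was highest in BT-474 (22.0, 28.1 and 27.0 CPM), 1.84-fold over SW620. SW620, BT-20 and SW48 overlapped between mean levels of 12.8 and 13.97 CPM, and NCI-N87 and MKN-45 overlapped at 4.01 ± 1.32 and 3.997 ± 0.882 CPM. All 6 genes passed the test of any difference among the 6 lines (adjusted p from 8.2e-18 for ERBB2 to 2.42e-06 for ERBB4), as did 97.1% of all genes tested, so this says little of these genes in particular. Counts follow transcript ends, and levels were compared between lines and not between genes.

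**Figure D1:**
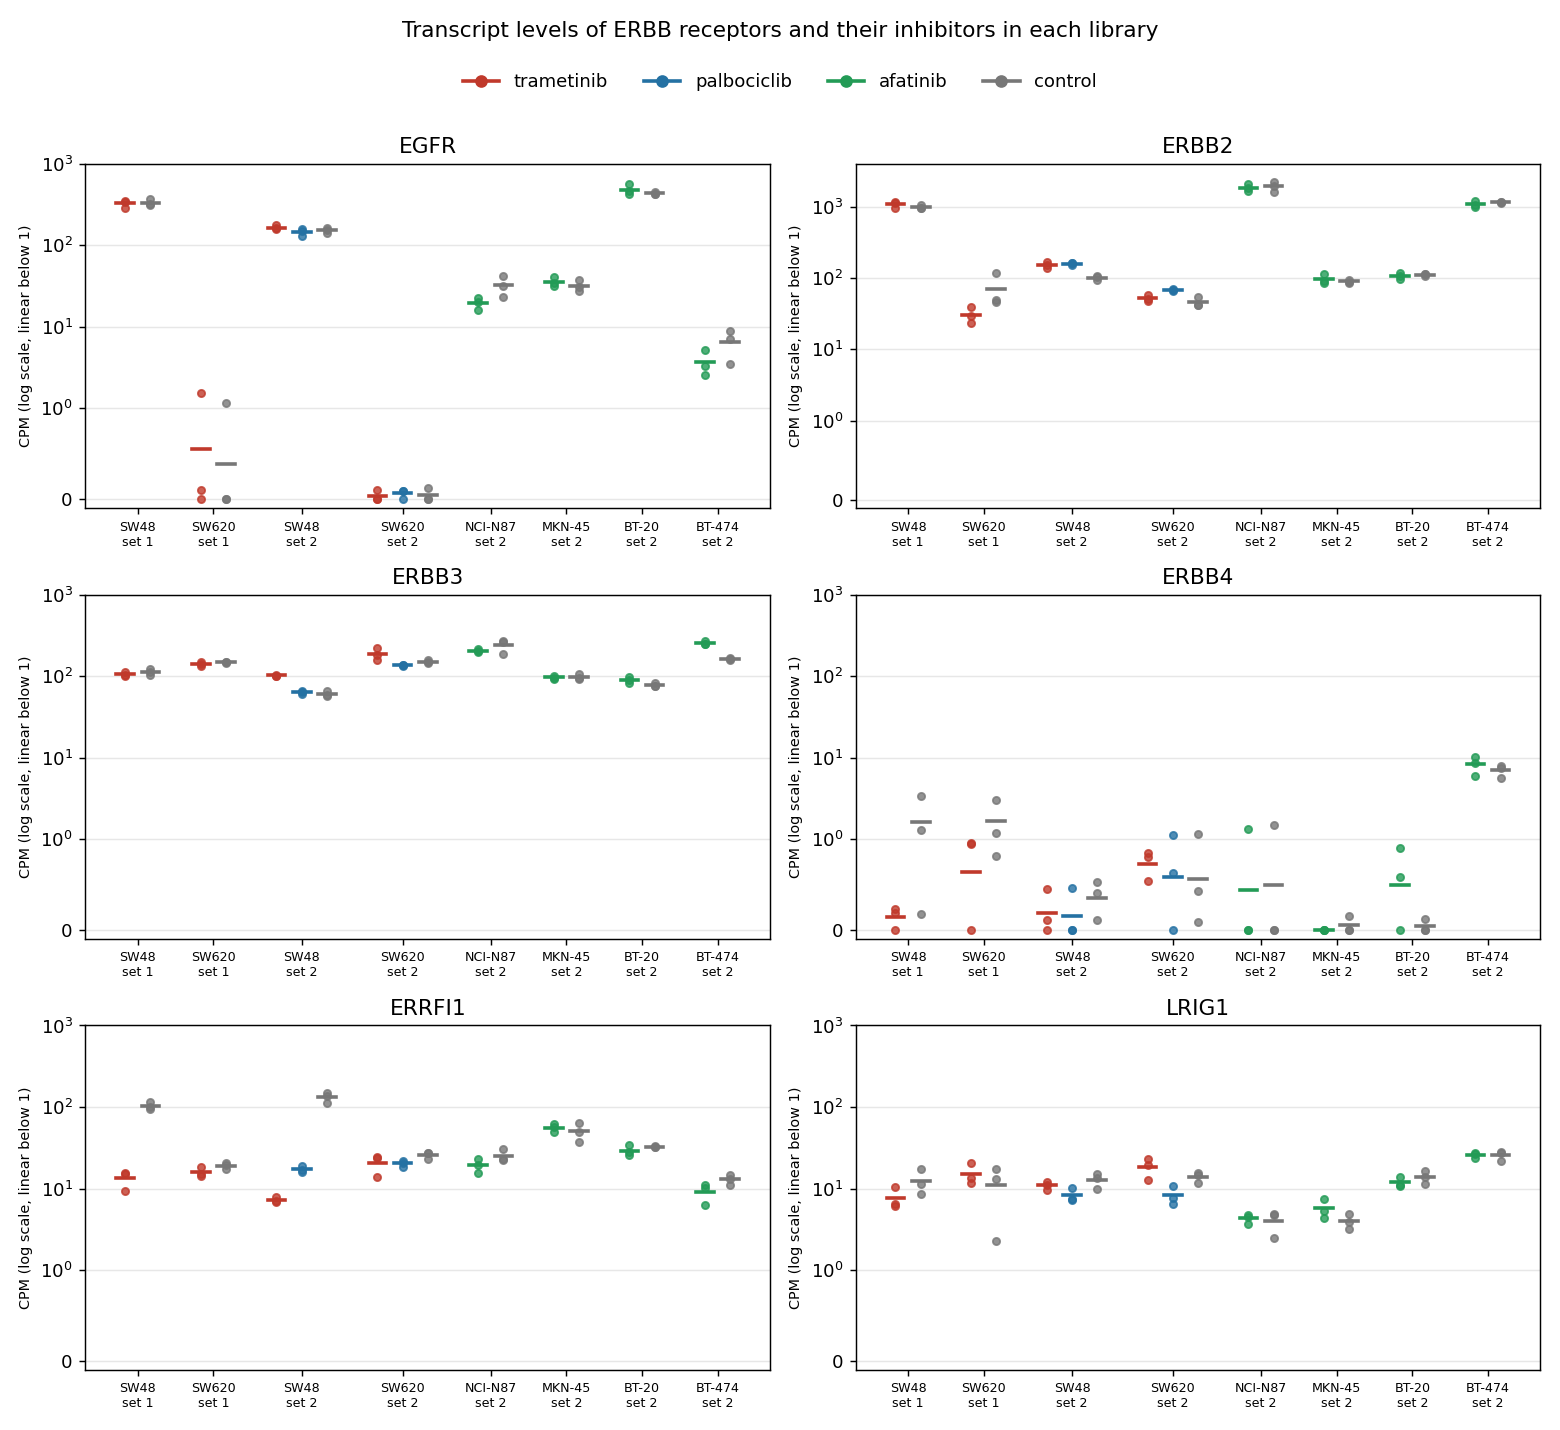
Level of each of the 6 genes in each library, in CPM on a log axis that is linear below 1; points are libraries, bars are means of 3, and drug groups stand left of their controls. ERRFI1 in SW48 is the widest gap between drug and control libraries, 6.90 to 7.94 CPM with trametinib and 112 to 149 CPM in controls of set 2.

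**Figure D2:**
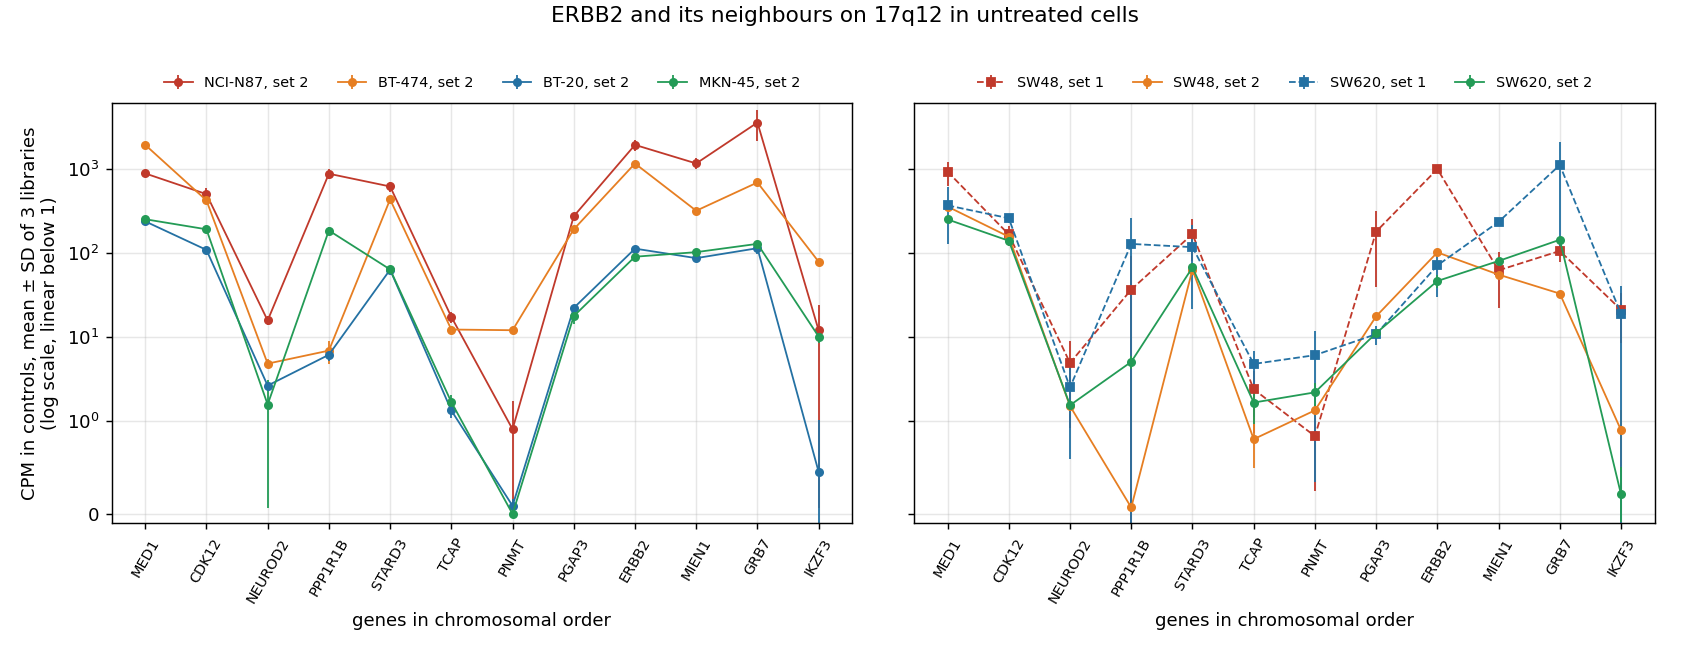
Mean CPM ± SD of 3 control libraries for ERBB2 and its neighbours on 17q12 in chromosomal order, on a log axis that is linear below 1. NCI-N87 and BT-474 lie above BT-20 and MKN-45 at STARD3, PGAP3, ERBB2, MIEN1 and GRB7, and SW48 of set 1 lies above SW48 of set 2 at ERBB2 (988 against 101 CPM).

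SW48 controls differed between the sets. ERBB2 held 953, 965 and 1047 CPM in set 1, against 103, 105 and 93.7 CPM in set 2, a ratio of 9.81. EGFR averaged 333 ± 29.4 CPM in set 1, against 153 ± 11.997 CPM in set 2, and ERBB3 averaged 113 ± 9.08 CPM in set 1, against 60.4 ± 4.36 CPM in set 2. PGAP3, the next gene to ERBB2 on one side, averaged 178 ± 139 CPM in set 1, against 17.5 ± 1.12 CPM in set 2. GRB7 averaged 104.8 ± 26.86 and 32.55 ± 1.792 CPM in that order, and STARD3 166.5 ± 87.18 and 62.87 ± 5.22 CPM. MIEN1, which overlaps ERBB2 on the other side, averaged 61.59 ± 39.56 and 54.79 ± 3.037 CPM. CDK12, a kinase gene of the same stretch, averaged 165 ± 45.0 and 155 ± 5.83 CPM. In SW620 control libraries ERBB2 held 45.4, 48.8 and 117 CPM in set 1, against 45.9 ± 7.64 CPM in set 2. GRB7 in SW620 averaged 1105 ± 993 CPM in set 1 and 142 ± 13.6 CPM in set 2. These levels were not tested, and a change in the cells and a difference in how the sets were made cannot be told apart.

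Against controls, ERBB2, ERBB3, ERRFI1 and LRIG1 were each called with at least 1 drug, in SW48, SW620 or BT-474, and EGFR and ERBB4 with none. A change is called at an adjusted p under 0.05 in edgeR's quasi-likelihood test, and a gene too low to be tested is left out. In SW48 trametinib called 1 of 5 tested members in set 1, where 35.4% of all tested genes were called, and 3 of 5 in set 2, where 60.1% were. In SW48 palbociclib called 3 of 5, against 57.5% of all genes. In SW620 trametinib called 0 of 4 in either set, where 0% of all genes were called, and palbociclib called 2 of 4, against 35%. Afatinib called 1 of 6 members in BT-474, against 42.7% of all genes. It called 0 of 5 in each of the other lines, against 0% of all genes in NCI-N87, 0% in MKN-45 and 0.585% in BT-20. With 4 to 6 members tested, nothing about the 6 genes as a group is read from these counts.

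A count of 0 does not show that nothing changed. Before adjustment, a p under 0.05 was reached by 366 of 13081 genes in SW620 with trametinib in set 1 and 2204 of 12919 in set 2. With afatinib it was reached by 1523 of 12472 in NCI-N87 and 664 of 12358 in MKN-45. With no change at all, a share of about 0.05 would reach it. SW620 of set 1 lay under that share and MKN-45 near it, so their counts give no sign of change. DESeq2 called 14, 208, 37 and 0 genes in the same order. Without control 1, NCI-N87 had 2108 called genes, and without trametinib 1, SW620 of set 2 had 882.

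Markers named for cell types moved with several of these groups, and their part in the results below was not tested. The samples are cell lines. In bulk RNA, a change in the share of cells that express a marker and a change in its RNA per cell cannot be told apart. In SW48 of set 2 the 6 colorectal markers summed to 279.7 to 307.8 CPM with trametinib, 177.8 to 202.1 CPM with palbociclib and 104.1 to 120 CPM in controls, with at least 3 markers at a mean of 1 CPM or more in each group. The 6 luminal breast markers summed to 95.15 to 96.1 CPM with trametinib, 91.09 to 99.27 CPM with palbociclib and 186 to 193.5 CPM in controls (ESR1 and PGR at 0 in the controls and, with GATA3, in the palbociclib libraries). The 5 non-epithelial markers summed to 20.57 to 22.97 CPM, 11.73 to 13.82 CPM and 8.663 to 10.57 CPM in the same order, with PECAM1 at 0 in the trametinib and control libraries. The 5 basal breast markers summed to 3.499 to 7.199 CPM, 6.717 to 9.177 CPM and 8.141 to 12.5 CPM in that order. In SW48 of set 1 the colorectal sum was 408.9 to 482.8 CPM with trametinib, against 98.51 to 119.4 CPM in controls, with CDX1 at 0 in both groups. Only 2 of the 6 colorectal markers reached a mean of 1 CPM in either group. The luminal sum there was 195.7 to 219.8 CPM with trametinib, against 306.9 to 498.6 CPM in controls (ESR1 at 0 in both), and that of the 5 basal breast markers 0.5855 to 2.461 CPM, against 9.916 to 11.99 CPM. The non-epithelial sum there was 53.9 to 84.31 CPM with trametinib (PECAM1 at 0), against 6.817 to 14.85 CPM in controls.

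In the other lines, the sums below are named because their drug and control ranges did not overlap. They were not tested, and some of the gaps are small. With 3 libraries a group, ranges can part without a drug effect, as an exact permutation test could not go below p = 0.1. In SW620 with trametinib the stomach sum of set 1 was 19.39 to 59.84 CPM, against 77.72 to 208.6 CPM in controls. The non-epithelial sum of set 2 was 171.4 to 204.3 CPM with trametinib, against 206.6 to 215.6 CPM in controls. In SW620 with palbociclib the luminal sum was 73.21 to 81 CPM (PGR at 0), against 115.8 to 128.7 CPM in controls, that of the 6 stomach markers 28.36 to 39.88 CPM (CTSE and GKN1 at 0), against 8.746 to 16.28 CPM (GKN1 at 0), the colorectal sum 115.1 to 118.7 CPM, against 91.29 to 96.28 CPM (CDX1 at 0 in both), and the non-epithelial sum 282.6 to 415.2 CPM, against 206.6 to 215.6 CPM. In BT-474 with afatinib the stomach sum was 532.2 to 588.6 CPM, against 299.9 to 325.8 CPM in controls, with GKN1 at 0 in both groups. A mean of 1 CPM was reached by 4 of the 6 stomach markers with afatinib and by 2 in controls. The luminal sum there was 1740 to 1856 CPM with afatinib, against 1273 to 1391 CPM in controls, with all 6 markers at a mean of 1 CPM or more, the non-epithelial sum 132.6 to 142.8 CPM, against 108.7 to 116.7 CPM, and the colorectal sum 4.817 to 9.458 CPM, against 1.475 to 2.867 CPM. With afatinib in NCI-N87 the colorectal sum was 320.2 to 402.2 CPM, against 257.9 to 298.4 CPM in controls. In MKN-45 it was 107.4 to 113.5 CPM, against 118.3 to 120.4 CPM. The luminal sum in BT-20 was 405.4 to 463.3 CPM with afatinib, against 390.4 to 403.3 CPM in controls.

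EGFR passed the test against controls with none of the 3 drugs. In SW48 of set 2 its libraries held 175, 156 and 161 CPM with trametinib, 129, 156 and 148 CPM with palbociclib, and 154, 164 and 140 CPM in controls. The groups overlapped (trametinib 0.08, SE 0.08, adjusted p = 0.349; palbociclib −0.08, SE 0.08, adjusted p = 0.443, on the log2 scale of the fit). In set 1 trametinib gave −0.02 (SE 0.11, adjusted p = 0.906), with 326 ± 36.0 CPM against 333 ± 29.4 CPM in controls. In BT-20, the line with most EGFR, afatinib libraries held 425, 455 and 562 CPM and control libraries 453, 425 and 429 CPM (0.16, SE 0.09, adjusted p = 0.472).

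In NCI-N87, EGFR held 22.4, 20.2 and 16.2 CPM with afatinib, against 23.1, 31.5 and 42.2 CPM in controls. The groups did not overlap, but the test did not pass (−0.71, SE 0.23, adjusted p = 0.372); without control 1 it did (−0.89, adjusted p = 0.0111). In BT-474 the values were 2.55, 3.26 and 5.21 CPM with afatinib and 6.98, 3.46 and 8.77 CPM in controls (−0.78, SE 0.36, adjusted p = 0.0958). In SW620, EGFR was near the limit of detection in both sets, with at most 1 count in any library of set 2, and no fold change is given there. In set 1 it had 0, 1 and 16 counts with trametinib and 11, 0 and 0 counts in controls, so a single library held nearly all reads of its group.

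ERBB2 rose in SW48 with both drugs of set 2. Trametinib libraries held 138, 150.04 and 165 CPM, palbociclib libraries 163, 151 and 162 CPM, and control libraries 103, 105 and 93.7 CPM. Each drug group lay above all controls, by 1.48-fold with trametinib (0.57, SE 0.08, adjusted p = 4.36e-05) and by 1.58-fold with palbociclib (0.66, SE 0.07, adjusted p = 1.98e-06). The overlapping gene MIEN1 averaged 65.5 ± 4.33 CPM with trametinib, 72.8 ± 1.14 CPM with palbociclib and 54.8 ± 3.04 CPM in controls; its part in the ERBB2 counts was not tested. In set 1, where the SW48 controls stood much higher, trametinib libraries held 1161, 1133 and 962 CPM and control libraries 953, 965 and 1047 CPM. The groups overlapped and the test did not pass (0.15, SE 0.09, adjusted p = 0.234).

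In SW620, palbociclib libraries held 66.7, 70.1 and 66.3 CPM of ERBB2, against 41.4, 41.6 and 54.8 CPM in controls. ERBB2 rose by 0.60 on the log2 scale (SE 0.12, adjusted p = 0.00293), and MIEN1 averaged 74.5 ± 3.85 CPM with palbociclib and 79.6 ± 3.53 CPM in controls. Trametinib gave 47.2, 51.3 and 57.7 CPM in set 2, which overlapped the controls (0.16, SE 0.14, adjusted p = 0.571). In set 1 the trametinib libraries held 28.9, 23.1 and 39.5 CPM, against 45.4, 48.8 and 117 CPM in controls (−1.24, SE 0.42, adjusted p = 0.919; −0.65 and adjusted p = 0.527 without control 3).

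Afatinib moved ERBB2 transcripts past the threshold in none of the 4 lines. In NCI-N87 they stood at 1813, 2090.38 and 1635 CPM with afatinib and 1599.77, 2204 and 1951 CPM in controls (−0.04, SE 0.15, adjusted p = 0.914). In BT-474 they stood at 1001, 1048 and 1181 CPM with afatinib and 1150.37, 1170.45 and 1133 CPM in controls (−0.08, SE 0.07, adjusted p = 0.320; adjusted p = 0.0264 without afatinib 3). BT-20 (106 ± 10.1 against 112 ± 5.41 CPM) and MKN-45 (96.5 ± 14.2 against 89.5 ± 3.98 CPM) overlapped with their controls too.

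ERBB3, the partner with the weak kinase, rose in SW48 with trametinib in set 2 and in BT-474 with afatinib. SW48 libraries held 102, 101 and 103 CPM with trametinib, 66.1, 63.4 and 61.0 CPM with palbociclib and 65.4, 58.2 and 57.5 CPM in controls. Trametinib libraries lay above all others, by 0.74 on the log2 scale (SE 0.07, adjusted p = 1.37e-06), while palbociclib libraries overlapped the controls (0.08, SE 0.08, adjusted p = 0.407). In SW48 of set 1 trametinib gave 103, 111 and 99.3 CPM against 114, 121 and 103 CPM in controls (−0.10, SE 0.10, adjusted p = 0.508). The rise of set 2 was not called in set 1, and the difference between the sets was not tested.

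In BT-474, ERBB3 held 249.7, 266 and 249 CPM with afatinib, against 167, 158 and 164 CPM in controls. All afatinib libraries lay above all controls, 1.58-fold (0.66, SE 0.06, adjusted p = 3.58e-06), and leaving out any 1 library kept the value between 0.62 and 0.67. In BT-20 the libraries held 81.5, 89.7 and 97.0 CPM with afatinib and 82.9, 74.7 and 76.4 CPM in controls (0.22, SE 0.08, adjusted p = 0.276). In NCI-N87 they held 217, 198 and 201 CPM with afatinib and 187, 271 and 264 CPM in controls (−0.22, SE 0.16, adjusted p = 0.547; −0.38 and adjusted p = 0.0339 without control 1). MKN-45 gave 0.00 (SE 0.09), with 96.5 ± 4.28 CPM against 97.0 ± 6.75 CPM in controls. In SW620 of set 2, trametinib libraries held 158, 182 and 219.86 CPM, against 148, 145 and 156 CPM in controls; the groups did not overlap, and the test did not pass (0.31, SE 0.13, adjusted p = 0.279; 0.17 without trametinib 3).

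ERBB4 could be tested against controls only in BT-474. Its libraries held 51, 35 and 62 counts with afatinib (8.68, 6.004 and 10.1 CPM) and 55, 41 and 55 counts in controls (7.9998, 5.68 and 7.54 CPM). The groups overlapped (0.24, SE 0.22, adjusted p = 0.413). Elsewhere the highest count in a library was 29, in a SW620 control of set 1, and most libraries had 10 or fewer.

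ERRFI1, the kinase-domain inhibitor, showed the largest change of the 6 genes in SW48, with both drugs. In set 2 its libraries held 7.94, 6.90 and 7.08 CPM with trametinib, 19.1, 16.9 and 16.01 CPM with palbociclib, and 112, 149 and 138 CPM in controls. No group overlapped another. ERRFI1 fell by 4.20 on the log2 scale with trametinib (SE 0.13, adjusted p = 4.21e-11), to 0.0544 of the control level, and by 2.94 with palbociclib (SE 0.12, adjusted p = 6.34e-11), to 0.131 of it. In set 1 trametinib libraries held 9.33, 15.6 and 15.01 CPM, against 116, 94.4 and 100.04 CPM in controls. The fall was 2.95 there (SE 0.20, adjusted p = 3.42e-05). The share of reads that did not align was 42.35 to 47.45% in these trametinib libraries and 22.4 to 37.99% in the controls; its part in the values was not tested.

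Outside SW48, ERRFI1 passed in no comparison with controls. In SW620 of set 2 it held 23.7, 24.6 and 13.8 CPM with trametinib, 18.4, 22.0 and 20.4 CPM with palbociclib, and 27.7, 27.5 and 22.9 CPM in controls. Trametinib 3 was the lowest library, and without it the value for trametinib was −0.12 rather than −0.34 (SE 0.20, adjusted p = 0.396). Palbociclib libraries all lay below the controls, without passing the test (−0.31, SE 0.12, adjusted p = 0.0748; adjusted p = 0.0309 without control 3). In set 1 trametinib libraries of SW620 held 18.2, 15.2 and 14.1 CPM, against 20.4, 17.4 and 19.7 CPM in controls (−0.31, SE 0.22, adjusted p = 0.919). With afatinib ERRFI1 held 11.1, 6.35 and 10.1 CPM in BT-474, against 11.1, 13.2 and 14.8 CPM in controls (−0.49, SE 0.20, adjusted p = 0.0673; adjusted p = 0.0396 in the lowest case with 1 library left out). In NCI-N87 (−0.37), BT-20 (−0.14) and MKN-45 (0.15) the groups overlapped, with adjusted p from 0.442 to 0.884.

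The 250 bases upstream of the ERRFI1 start are shown because this gene moved most. They come from RefSeq (GRCh38.p14, chr1:8026310-8026559, − strand), and the capitals mark a CCAAT box, read here as ATTGG.
ERRFI1 upstream: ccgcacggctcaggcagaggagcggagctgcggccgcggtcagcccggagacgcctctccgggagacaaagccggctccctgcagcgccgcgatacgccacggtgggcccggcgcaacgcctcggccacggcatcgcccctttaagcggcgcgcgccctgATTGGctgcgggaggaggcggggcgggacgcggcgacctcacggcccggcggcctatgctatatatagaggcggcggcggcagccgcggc
The letters CCAAT, searched on both strands, occur in 32% of the 35116 such windows of all genes. No match was found to the ETS core CCGGAA (in 14.5% of all windows), the AP-1 site TGANTCA (6.57%), the FOXO site GTAAACA (2.98%) or the E-box CACGTG (6.34%), which says only that these letters are not in this window.

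LRIG1, the inhibitor that promotes receptor degradation, fell with palbociclib in both colorectal lines. In SW48 it held 7.45, 10.3 and 7.19 CPM with palbociclib and 15.04, 9.86 and 13.5 CPM in controls. The groups overlapped, and the fall of 0.62 on the log2 scale (SE 0.19, adjusted p = 0.0121) was lost without control 1 (−0.50, adjusted p = 0.0604). In SW620 it held 7.65, 6.53 and 10.7 CPM with palbociclib, against 15.7, 14.6 and 11.6 CPM in controls. The groups did not overlap, the fall was 0.70 (SE 0.20, adjusted p = 0.0197), and it was lost without control 1 or 2 or palbociclib 1 or 2 (adjusted p from 0.0526 to 0.0826). SLC25A26, which overlaps LRIG1, averaged 28.0 ± 1.45 CPM with palbociclib in SW620 and 37.7 ± 1.59 CPM in controls, and 30.9 ± 1.88 and 33.8 ± 1.95 CPM in SW48. Its part in the LRIG1 counts was not tested.

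With trametinib LRIG1 did not pass. In set 2 it held 12.2, 9.68 and 10.9 CPM in SW48, overlapping its controls (−0.24, SE 0.17, adjusted p = 0.225), and 12.8, 19.3 and 22.9 CPM in SW620, against 15.7, 14.6 and 11.6 CPM (0.38, SE 0.21, adjusted p = 0.382). In set 1 the values were −0.70 in SW48 (SE 0.36, adjusted p = 0.163) and 0.43 in SW620 (SE 0.66, adjusted p = 0.919), where control 3 held 2.27 CPM against 17.6 and 12.99 CPM in the other controls. With afatinib LRIG1 held 27.4, 26.4 and 23.8 CPM in BT-474 and 22.0, 28.1 and 27.0 CPM in its controls (0.02, SE 0.12, adjusted p = 0.909). In the other afatinib lines adjusted p was 0.704 to 0.871, with all groups overlapping.

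**Figure D3:**
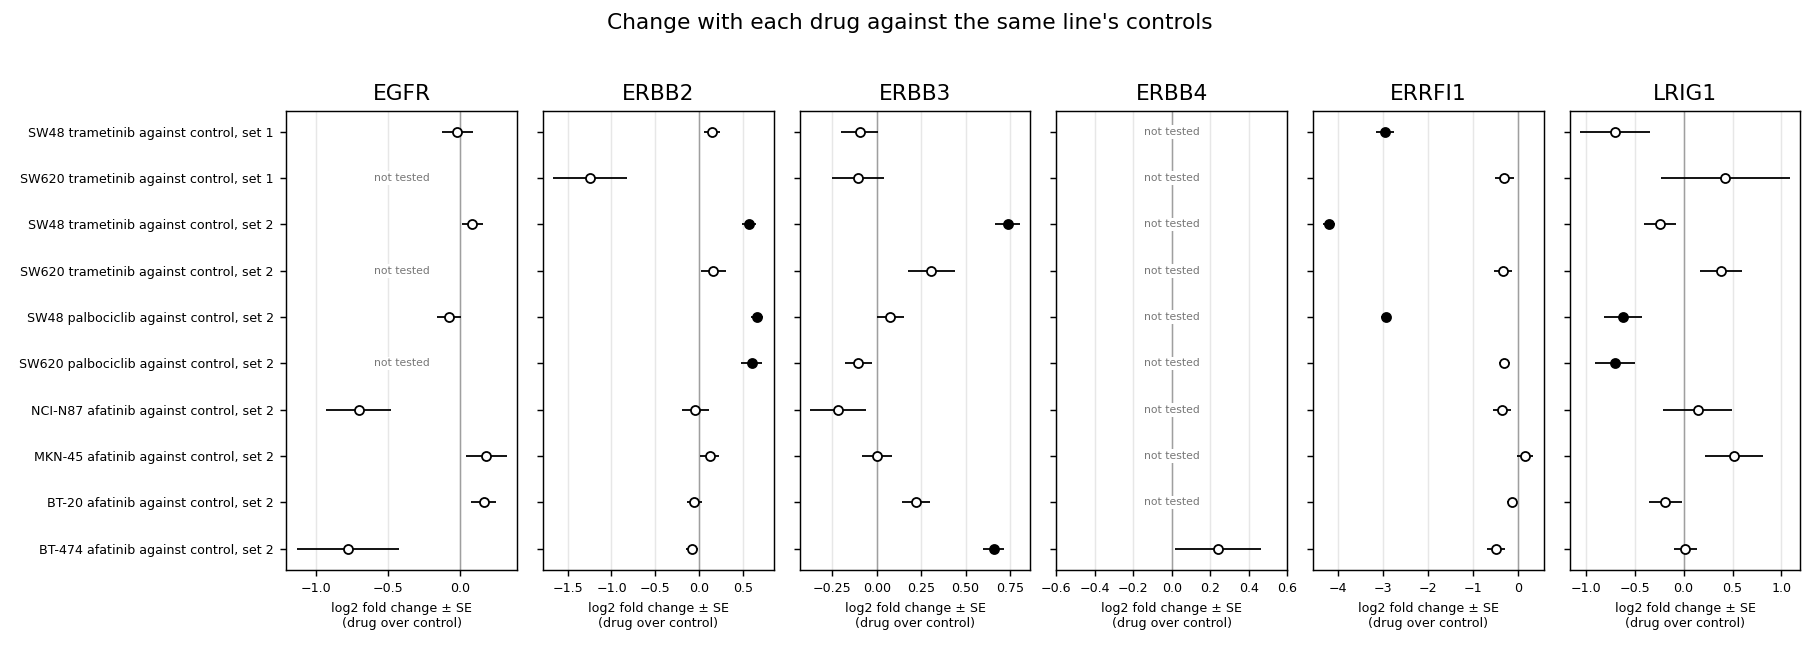
Log2 fold change ± SE of each gene with each drug over the controls of its line and set; filled points passed an adjusted p of 0.05, and each panel has its own axis. ERRFI1 fell in all 3 SW48 comparisons (−2.95, −4.20 and −2.94), and ERBB3 rose with trametinib in SW48 of set 2 and with afatinib in BT-474.

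DUSP6, a phosphatase gene induced by ERK, was read beside each trametinib comparison as a check of MEK inhibition. In SW48 of set 1 it averaged 13.4 ± 2.23 CPM with trametinib, against 169 ± 3.98 CPM in controls, and in set 2 64.1 ± 4.33 CPM with trametinib, against 357 ± 20.3 CPM (−3.65 and −2.50 on the log2 scale, adjusted p = 2.94e-06 and 2.5e-11). In SW620 of set 1 it averaged 186 ± 15.8 CPM with trametinib, against 256 ± 113 CPM in controls, and in set 2 268 ± 88.9 CPM with trametinib, against 324 ± 22.5 CPM; neither passed (adjusted p = 0.919 and 0.491). Without the library that stood apart the SW620 values were −0.06 in set 1 and −0.05 in set 2. With trametinib, DUSP6 and ERRFI1 both fell in SW48 and passed the test in SW620 in neither set. DUSP6 levels also differed from controls with palbociclib, without overlap. They averaged 210 ± 5.89 CPM in SW48, against 357 ± 20.3 CPM in controls, and 412 ± 3.88 CPM in SW620, against 324 ± 22.5 CPM. A lower DUSP6 level in SW48 was thus not particular to trametinib.

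The difference between lines was tested directly. The trametinib effect on ERRFI1 was higher in SW620 than in SW48 by 2.65 on the log2 scale in set 1 (SE 0.30, adjusted p = 0.000439) and by 3.88 in set 2 (SE 0.26, adjusted p = 3.26e-07). The palbociclib effect on ERRFI1 was higher in SW620 by 2.64 (SE 0.18, adjusted p = 5.83e-08). In these fits ERRFI1 was the only member called, in comparisons where 6.73%, 28.2% and 25.7% of all tested genes were called. For ERBB2 the palbociclib effect gave −0.05 between SW620 and SW48 (SE 0.14, adjusted p = 0.850), so its rises in both lines were not told apart. For ERBB3 the trametinib effect of set 2 gave −0.41 (SE 0.15, adjusted p = 0.0542), and without 1 of the libraries it ranged from −0.55 to −0.30 with adjusted p from 0.00267 to 0.107. That ERBB3 difference was called with DESeq2 (adjusted p = 0.0265), its size factors (0.0387), no filter (0.0436), all groups in 1 fit (0.0199) and a robust dispersion (0.0486). In set 1 the ERBB2 difference of −1.38 (SE 0.45, adjusted p = 0.0957) was called with DESeq2 (−1.42, adjusted p = 0.0286), and without SW620 control 1 (−1.61, adjusted p = 0.0472) or control 3 (−0.79, adjusted p = 0.039).

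With afatinib, the ERBB3 effect was higher in BT-474 than in BT-20 by 0.42 (SE 0.10, adjusted p = 0.00568), where 23.8% of all tested genes were called. Leaving out any 1 library gave 0.36 to 0.49. EGFR gave −0.96 there (SE 0.35, adjusted p = 0.0576) and did not pass. Between NCI-N87 and MKN-45 no member passed, and 0.0145% of all genes were called; EGFR gave −0.87 (SE 0.29, adjusted p = 0.359).

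**Figure D4:**
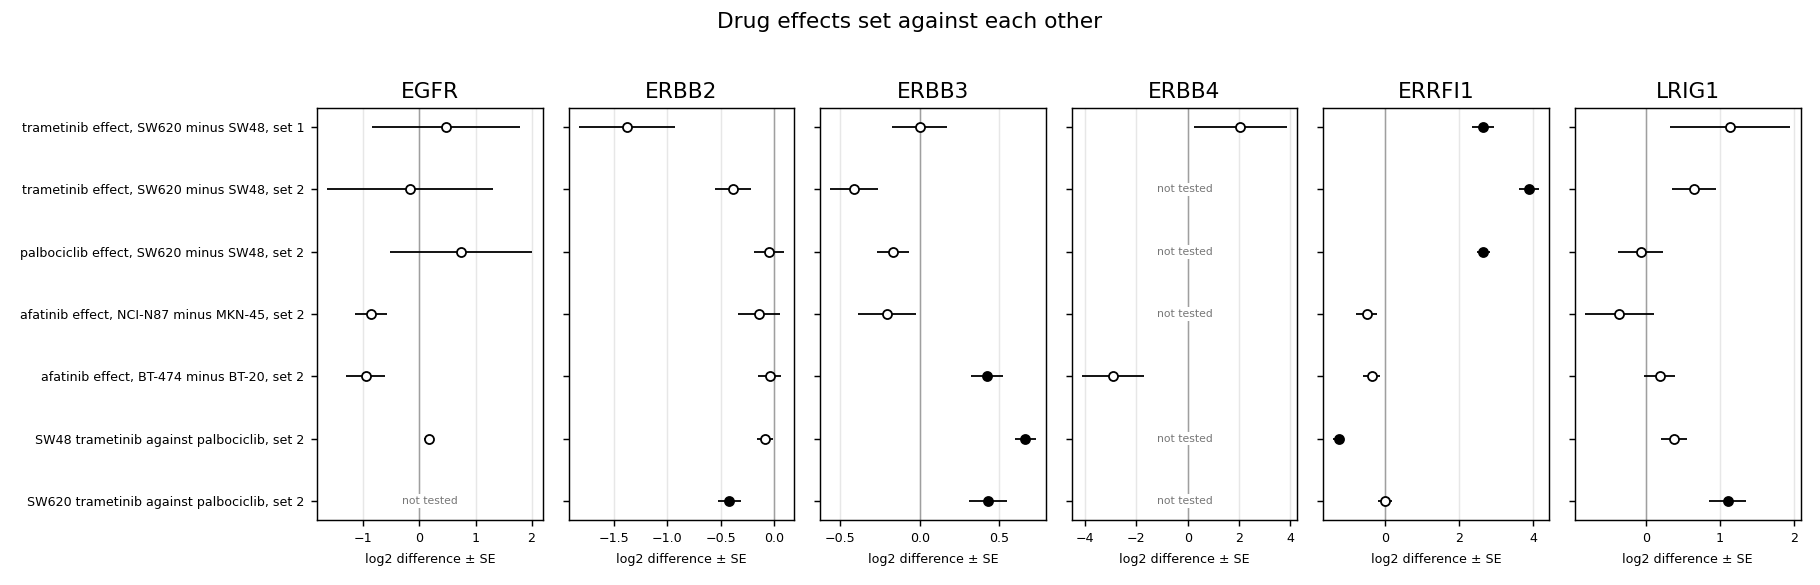
Differences between drug effects of the lines named, and between trametinib and palbociclib within a line, as log2 values ± SE; filled points passed an adjusted p of 0.05, and each panel has its own axis. ERRFI1 differed between SW620 and SW48 in all 3 comparisons (2.65, 3.88 and 2.64); EGFR values there, and all ERBB4 values, rest on libraries with few or no counts.

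Trametinib was also set directly against palbociclib in set 2, without the shared controls. In SW48, where 41.9% of all genes were called, ERBB3 was higher with trametinib (102 ± 0.851 CPM) than with palbociclib (63.5 ± 2.51 CPM; 0.66, SE 0.06, adjusted p = 2.76e-06). ERRFI1 was lower with trametinib (7.31 ± 0.558 CPM) than with palbociclib (17.3 ± 1.60 CPM; −1.26, SE 0.14, adjusted p = 1.25e-05). For ERBB2, 151 ± 13.8 CPM with trametinib and 159 ± 6.79 CPM with palbociclib overlapped (−0.09, SE 0.07, adjusted p = 0.358). In SW620, where 32.7% of all genes were called, LRIG1 averaged 18.3 ± 5.11 CPM with trametinib and 8.29 ± 2.16 CPM with palbociclib and was higher with trametinib (1.10, SE 0.25, adjusted p = 0.00678). ERBB2 was lower with trametinib (−0.42, SE 0.11, adjusted p = 0.0127) and ERBB3 higher (0.43, SE 0.12, adjusted p = 0.0211). The ERBB2 call was lost without palbociclib 2 (adjusted p = 0.0537) or trametinib 2 (adjusted p = 0.0545), and the ERBB3 call without trametinib 2 or any 1 palbociclib library (adjusted p up to 0.0742).

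Other genes of the pathway were read from lists. Of 111 named results of such genes, 33 lost their call under some alternative fit, and these are not marked below. Their counts stand against the shares of all tested genes that were called, in either direction, in the same comparison: 35.4% with trametinib in SW48 of set 1, 60.1% with trametinib and 57.5% with palbociclib in SW48 of set 2, 35% with palbociclib in SW620 and 42.7% with afatinib in BT-474. By direction, trametinib in SW48 raised 1957 and lowered 2374 of 12235 genes in set 1, and 3814 and 3814 of 12688 in set 2. Palbociclib raised 3596 and lowered 3702 of 12690 in SW48, and 2303 and 2273 of 13068 in SW620. Afatinib in BT-474 raised 2673 and lowered 2784 of 12768. A count in 1 direction stands against these numbers, and whether any list stands apart from its share was not tested. Of 11 EGF family ligands 6 could be tested in SW48, and 4 of them fell with trametinib in each set (median −1.45 in set 1 and −1.16 in set 2, against 0.01 for all genes tested in each). AREG, which encodes amphiregulin, averaged 17.9 ± 1.08 CPM with trametinib and 441 ± 42.9 CPM in controls of set 2 (−4.64, SE 0.09, adjusted p = 1.34e-12), and EREG, which encodes epiregulin, 7.01 ± 0.293 and 131 ± 17.8 CPM (−4.24, SE 0.12, adjusted p = 2.56e-11). With palbociclib 4 of the 6 ligands fell and 1 rose. EREG averaged 22.5 ± 2.55 CPM and AREG 131 ± 11.16 CPM with palbociclib, while TGFA, another EGFR ligand, rose to 24.7 ± 3.55 CPM, against 13.4 ± 2.29 CPM in controls (0.89, SE 0.14, adjusted p = 9.63e-05). In SW620 palbociclib raised 1 of 5 tested ligands, EREG (8.43 ± 0.427 against 4.01 ± 0.935 CPM; 1.13, SE 0.22, adjusted p = 0.00255). In BT-474 afatinib raised 1 of 7, AREG (194 ± 16.4 against 119 ± 17.7 CPM; 0.72, SE 0.10, adjusted p = 9.44e-05).

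The enzymes that release ligands and their escorts were split in SW48 of set 2. Of 4 tested with trametinib 2 rose and 2 fell: ADAM10, a sheddase, averaged 69.4 ± 12.5 CPM with trametinib, against 15.8 ± 2.55 CPM in controls (2.12, SE 0.14, adjusted p = 5.25e-08), and ADAM17, the sheddase of amphiregulin, 28.7 ± 3.12 CPM, against 47.8 ± 2.65 CPM (−0.75, SE 0.09, adjusted p = 1.1e-05). With palbociclib 2 rose and 1 fell, ADAM10 by 0.72 and RHBDF1, an escort of ADAM17, by 0.79, and ADAM17 fell by 0.81. In set 1 trametinib lowered 2 of the 4, ADAM17 by 1.42 and RHBDF2, another escort, by 0.57. In SW620 palbociclib raised RHBDF1 by 0.99 (34.5 ± 3.60 against 17.9 ± 2.46 CPM), and in BT-474 afatinib raised it by 0.48, each the single call among 4.

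Among 12 adaptors and relays, trametinib in SW48 of set 2 raised 5 and lowered 4. PIK3R3, a regulatory subunit of PI3 kinase, rose by 1.21 and GAB1, a docking protein, by 1.17, and PTPN11, the phosphatase SHP2, fell by 0.54. In set 1 trametinib raised 2, PIK3R3 by 2.02 and PIK3R1 by 0.72, and lowered 1. Palbociclib raised 2 and lowered 5 of 12 in SW48, with PIK3R3 up by 1.22 and GRB7 up by 0.87, and raised 4 and lowered 1 of 11 in SW620. Afatinib in BT-474 raised 1 and lowered 3 of 12, with PIK3R1 up by 0.67 and PTPN11 down to 67.1 ± 9.85 CPM, against 122 ± 11.3 CPM in controls (−0.85, SE 0.10, adjusted p = 3.5e-05).

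Among genes of receptor turnover and other restraint, none rose in SW48. Trametinib lowered 2 of 13 tested in set 1 and 5 of 13 in set 2, and palbociclib lowered 7 of 13. RNF41 (NRDP1), a ligase that targets ERBB3, averaged 42.7 ± 2.91 CPM with trametinib and 77.5 ± 2.96 CPM in controls of set 2 (−0.88, SE 0.07, adjusted p = 3.74e-07). It also fell in set 1, by 0.50 (SE 0.16, adjusted p = 0.039). NEDD4, a ubiquitin ligase, fell with palbociclib in SW48 (−0.86) and SW620 (−0.52) and with afatinib in BT-474 (−0.70), where 2 of 12 tested genes of the list fell.

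Other receptor tyrosine kinases were also called in SW48, SW620 and BT-474. In SW48 trametinib lowered EPHA2, an ephrin receptor, to 38.0 ± 0.990 CPM, against 202 ± 12.3 CPM in controls of set 1, and to 36.3 ± 2.85 CPM, against 204 ± 16.6 CPM in set 2 (−2.40 and −2.51). It was 1 of 5 of 9 tested that fell in set 1 and 1 of 4 of 10 in set 2, where 1 rose. MET, the hepatocyte growth factor receptor, fell by 1.40 in set 1. Palbociclib raised 4 and lowered 3 of 10 in SW48, and raised 4 and lowered 1 of 10 in SW620, with DDR1, a collagen receptor, up by 1.06 and INSR, the insulin receptor, down by 1.16. In BT-474 afatinib raised 4 and lowered 2 of 11. IGF1R, the receptor of insulin-like growth factors, averaged 172 ± 15.3 CPM with afatinib and 88.8 ± 3.79 CPM in controls there (0.97, SE 0.08, adjusted p = 1.06e-06).

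Among the neighbours of ERBB2 on 17q12, the numbers called in SW48 of set 2 and in SW620 were near the shares of all genes given above. In SW48 4 rose and 1 fell of 8 tested with trametinib of set 2 and with palbociclib alike, 3 rose of 10 with palbociclib in SW620, and 6 rose and 1 fell of 11 with afatinib in BT-474, where ERBB2 itself did not pass. In SW48 of set 1 trametinib lowered 2 of 10. GRB7 averaged 59.3 ± 4.34 CPM with palbociclib in SW48, 46.3 ± 2.45 CPM with trametinib and 32.5 ± 1.79 CPM in controls.

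None of the genes tested in the 5 lists from ligands to other receptor tyrosine kinases passed in SW620 with trametinib or in NCI-N87, MKN-45 or BT-20 with afatinib. Of 8 genes of ERK output, trametinib lowered 5 in SW48 of set 1 and 8 in set 2, and 0 in SW620 of either set. Palbociclib lowered 4 and raised 2 of them in SW48 and raised 3 in SW620. Afatinib lowered 6 and raised 1 in BT-474, with DUSP6 at 28.7 ± 0.997 CPM against 92.6 ± 4.81 CPM in controls. It lowered 1 in BT-20, ETV5 (−0.52, adjusted p = 0.0154), an ETS factor, and 0 in NCI-N87 and MKN-45.

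The genes whose pattern over the 14 groups of set 2 was most like that of each member were found by the Pearson correlation of mean log2 CPM among 7437 genes. Groups of one line share their cells, and the drug groups share controls, so r is a description. For ERBB2 the nearest were PGAP3 (r = 0.990) and STARD3 (r = 0.961), both its neighbours on 17q12, and FAM83H-AS1 (r = 0.957). For EGFR they were CDH3 (r = 0.979), PIM1 (r = 0.971) and RAB11FIP5 (r = 0.951), and for ERBB3 NEXN (r = 0.938), DAB2IP (r = 0.905) and C8orf59 (r = 0.903). ERBB4, which rests on BT-474, was nearest to DHX40 (r = 0.953), APPBP2 (r = 0.947) and RAE1 (r = 0.946). For LRIG1 the nearest were ZNF398 (r = 0.938), RPS6KA5 (r = 0.933) and COPS5 (r = 0.926). ERRFI1 had the lowest likeness to its nearest genes, NUPL1 (r = 0.873), SMIM13 (r = 0.863) and HSPA9 (r = 0.848). Between members, r was highest for ERBB4 and LRIG1 (0.731) and lowest for EGFR and ERBB3 (−0.616). ERBB4 outside BT-474 and EGFR in SW620 were near the limit of detection. These r values, and those of the genes nearest to EGFR, rest in part on such groups.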

How the data were processed

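RNA of 54 libraries was sequenced from 3′ ends (Lexogen QuantSeq, per the labels' protocols). Trimmomatic, STAR, featureCounts and build hg38 are named per the submitters' processing notes; versions, annotation and strand setting are not stated there. The 2 deposited tables hold whole-number counts per gene. The second repeats the 12 libraries of set 1 with identical values; these were counted once. In set 1, 39.69 to 73.76% of reads lay on 5 lines naming no gene, kept out of every fit.

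Tests on these counts used edgeR 4.0.16 in R 4.3.3: filterByExpr (minimum count 10, total 15), TMM, quasi-likelihood test, two-sided, Benjamini-Hochberg over all genes tested, threshold 0.05. Each comparison used its own groups, taken from the labels; effects of lines were compared by a contrast over 4 groups. SE is derived from the test statistic. CPM uses TMM over all libraries of a set, with no length correction. Libraries under 3 counts are taken as not detected; this covers counting error only. With 3 libraries a group, an exact permutation test could not go below p = 0.1. Fits were tested on simulated data. Members and lists were chosen with earlier results of these data known. All members were named, plus up to 2 called genes per list and direction with the largest change whose groups do not overlap, less some for length; ETV5, and DUSP6 in BT-474, were named beyond that rule. Alternatives were DESeq2 1.42.0, its size factors, no filter, a joint fit of all groups of a set, a replicate block, a robust dispersion, each library left out, and levels without TMM. Replicate numbers were not used as pairs, though 3 libraries a group cannot exclude pairing. Figures used Python 3.11.15 and matplotlib 3.10.9.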

Additional observations from a re-analysis of the deposited data

Results flagged for a closer look

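The trametinib effect on ERRFI1 differed between SW620 and SW48, by 2.65 on the log2 scale in set 1 and by 3.88 in set 2, each by a test of the difference itself. Its libraries in SW620 ranged from 14.1 to 18.2 CPM with trametinib and from 17.4 to 20.4 CPM in controls of set 1. The palbociclib effect on ERRFI1 differed between the same lines by 2.64. Leaving out any 1 library gave 2.45 to 2.79, 3.74 to 4.10 and 2.51 to 2.72 in that order. The afatinib effect on ERBB3 differed between BT-474 and BT-20 by 0.42. ERRFI1 control levels differ between SW48 (133 CPM in set 2) and SW620 (26.0 CPM in set 2), and the labels give neither doses nor times; their part in these differences was not tested.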

How the results depend on the processing

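Of 19 member changes that passed, all kept their direction and their call in the 114 refits with another normalisation, filter, tool, dispersion or group choice, and in 127 of 138 refits with 1 library left out. The 11 losses fell on 4 of them: LRIG1 with palbociclib in SW48 and in SW620, and ERBB2 and ERBB3 with trametinib against palbociclib in SW620. Of 65 that did not pass, 15 passed under at least 1 alternative and 16 turned in direction under at least 1; the cause was not tested. Of 111 named results of other pathway genes, 33 lost their call under some alternative and none turned. Without TMM 23 of 108 levels moved beyond 1 SD.

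Numbers of called genes changed most where 0 or few were called. With all groups of a set in 1 fit they were 2227 for SW48 with trametinib in set 1, 2 and 632 for SW620 with trametinib in sets 1 and 2, 1427 for NCI-N87 (1 member, EGFR), 7 for MKN-45, 12 for BT-20, 437 for NCI-N87 minus MKN-45 and 1943 for BT-474 minus BT-20. DESeq2 called 14 and 208 for SW620 in sets 1 and 2, 37 for NCI-N87, 163 for BT-20, 36 for NCI-N87 minus MKN-45 and 1830 (2 members, ERRFI1 and ERBB2) for the trametinib difference of set 1. With no filter there were 398 for SW620 in set 2, 197 for NCI-N87, 497 for BT-20 and 140 for NCI-N87 minus MKN-45, and 3 members for BT-474 and for BT-474 minus BT-20. The trametinib difference of set 2 called 2 members, ERRFI1 and ERBB3, with DESeq2, its size factors, no filter, all groups in 1 fit or a robust dispersion.

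With the replicate number as a block, BT-20 had 5 called genes, NCI-N87 minus MKN-45 had 0 and BT-474 minus BT-20 had 2 called members. Same-numbered libraries correlated at −0.156 to 0.118 over 36 pairs in 12 comparisons, so the numbers were not taken as pairs.

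With 1 library left out, called genes ranged from 0 to 882 for SW620 with trametinib in set 2, 0 to 2108 for NCI-N87 (0 to 2 members), 0 to 1 for MKN-45, 6 to 96 for BT-20, 0 to 1315 for NCI-N87 minus MKN-45 (0 to 1 members) and 493 to 2439 for the trametinib difference of set 1 (1 to 2 members). Called members ranged from 1 to 3 for SW620 with palbociclib, BT-474, BT-474 minus BT-20, the trametinib difference of set 2 and SW620 with trametinib against palbociclib. Values that turned ranged, for ERBB2, from −0.16 to 0.062 in NCI-N87, −0.0084 to 0.20 in MKN-45, −0.13 to 0.013 in BT-20, −0.12 to 0.028 for BT-474 minus BT-20 and −0.12 to 0.11 for the palbociclib difference. For LRIG1 they ranged from −0.046 to 0.96 in SW620 of set 1, −0.12 to 0.30 in NCI-N87, −0.087 to 0.084 in BT-474 and −0.31 to 0.11 for the palbociclib difference. For ERRFI1 they ranged from −0.023 to 0.37 in MKN-45 and −0.15 to 0.20 for trametinib against palbociclib in SW620. For ERBB3 they ranged from −0.042 to 0.061 in MKN-45 and −0.044 to 0.073 for the trametinib difference of set 1. For EGFR they ranged from −0.078 to 0.066 in SW48 of set 1, −2.65 to 5.15 and −1.96 to 1.73 for the trametinib differences, where SW620 has almost no counts. ERBB3 in MKN-45 also turned with size factors of DESeq2 (−0.000394), DESeq2 (−0.000707) and all groups in 1 fit (−0.0091), LRIG1 in BT-474 with no filter (−0.0041), and ERBB3 in the trametinib difference of set 1 with no filter (0.0347). Depth limits ERBB4 outside BT-474 and EGFR in SW620.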
